A study of Drosophila melanogaster with 4 samples.

Results

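Dense runs of Scute peaks are stretches of the fly genome in which called binding peaks follow each other at short distances. They were chosen from the deposited peak list by position. On each placed arm a peak was joined to the run before it when its start lay within 10000 bp of the highest end in that run, and runs of at least 4 peaks were kept. Runs inside 21.4 to 21.5 Mb of 2L, 21.82 to 21.875 Mb of 3R and 14.95 to 14.985 Mb of 3L (4 runs with 50 peaks) were left out, as were peaks on unplaced and heterochromatic scaffolds. This gave 41 runs with 225 peaks, which is 23.6% of the 953 peaks on placed arms and 17.6% of the 1276 peaks of the list. Since the runs were picked by where peaks lie in the same ChIP to Input comparison that gave scores and widths, all values below are descriptions with no test.

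The data come from chromatin immunoprecipitation followed by sequencing (ChIP-seq) of whole Drosophila melanogaster embryos, with 2 ChIP libraries and 2 Input libraries. The ChIP libraries were made with an unpurified polyclonal guinea pig serum against Scute, and Input is chromatin DNA taken without the antibody step. Embryos were labelled 0 to 8 h, while the collection protocol attached to them speaks of an 8 to 16 h egg laying, and they were fixed in 1.8% formaldehyde for 15 min. All 4 libraries share the y; cn bw sp strain. Its listed alleles are y[1] and oc[R3.2], then Gr22b[1], Gr22d[1] and cn[1] with CG33964[R4.2], bw[1] and sp[1], and LysC[1], lab[R4.2] and MstProx[1] with GstD5[1] and Rh6[1]. The list holds 1 value per peak and none per library, so replicate error cannot be given and library depth is unknown. Whole embryos mix many cell types, and the list does not tell in which cells a peak arose.

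Scute, encoded in the achaete-scute complex, belongs to the basic helix-loop-helix family of transcription factors. It pairs with Daughterless, binds E-box sequences, and is known for giving ectodermal cells the potential to become neural precursors. In the early embryo it also acts as an X-linked signal element in sex determination. Developmental genes of the fly often carry several enhancers over many kilobases, and a factor can be bound at several of them. The genes and the sequence at these runs were not analysed here, because no genome or annotation of FlyBase release 5, the build of the coordinates, was used.

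Most dense runs were small, and a single long run at the end of chromosome 4 stood apart. Of the 41 runs, 18 had 4 peaks, 11 had 5, 5 had 6, 3 had 7, 2 had 8, and the remaining 2 had 9 and 22. Run length had a median of 7941 bp and ranged from 2084 to 36327 bp. In all, 10 runs were under 5 kb, 16 were 5 to 10 kb and 15 were longer. Together they spanned 391 kb, of which peaks covered 101 kb, or 25.9%. The covered share of a run ranged from 10.9% on 2R (12457682 to 12468160) to 87.2% on the same arm (7779761 to 7782862). A run is named below by its arm and its order along that arm.

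**Figure D1:**
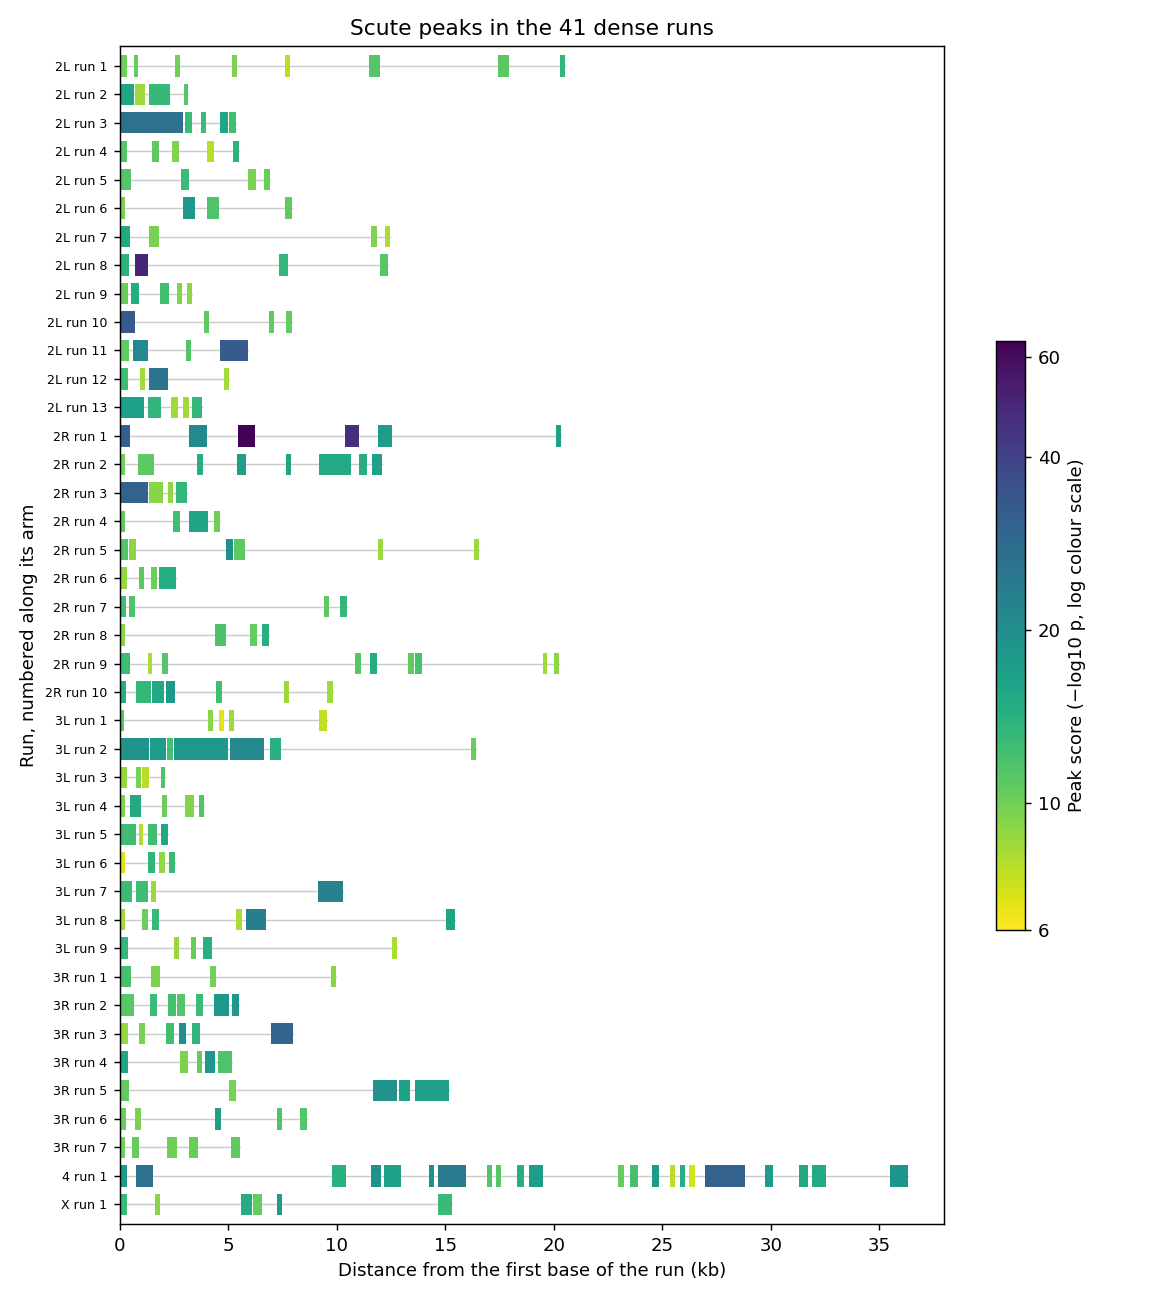
Each row is a dense run, with its peaks as bars at their distance in kb from the first base of the run and coloured by score (−log10 p, log colour scale). The run on chromosome 4 extends over 36327 bp with 22 peaks, while 26 of the other 40 runs stay under 10 kb.

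The arms held unequal shares of their peaks in runs. On 2L there were 13 runs with 60 of 213 placed peaks (28.2%), on 2R 10 runs with 56 of 210 (26.7%), and on 3L 9 runs with 44 of 181 (24.3%). Arm 3R had 7 runs with 37 of 245 peaks (15.1%), chromosome 4 had 1 run with 22 of 32 (68.8%), and X had 1 run with 6 of 72 (8.33%). The joining distance was the same on all arms, but the arms differed in how densely peaks lay on them. The placed peaks spanned 1.28 Mb on chromosome 4, 21.2 Mb on X and 27.6 Mb on 3R. On 2L, 2R and 3L they spanned 22.4, 20.2 and 23.1 Mb. The shares were not adjusted for this. Their 95% exact intervals were 10.9 to 20.2% on 3R, 50.0 to 83.9% on chromosome 4 and 3.12 to 17.3% on X. These intervals count peaks as independent, which neighbours in a run may not be. The peaks of the stretches set aside on 2L, 3L and 3R still count among the placed peaks of those arms. Among the 35 distances between neighbouring runs of an arm the median was 964 kb. Only 2 were under 100 kb, the 45.6 kb between runs 12 and 13 of 2L and the 84.7 kb between runs 1 and 2 of 2R.

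The strongest run was 2R run 1, from 6305427 to 6325741, with 6 peaks over 20315 bp. Its peaks scored 31.20 (6305427 to 6305900), 21.08 (6308609 to 6309458), 63.13 (6310853 to 6311633), 46.83 (6315791 to 6316422), 17.30 (6317333 to 6317971) and 16.55 (6325510 to 6325741). The highest score of any run was thus the third peak along it, rank 5 in the whole list, and the fourth peak held rank 31. This was the only run in which every peak scored above 13.3, the median of the list, and the only run whose own median, 26.1, was above 20. It was also the sparsest run, with 0.295 peaks per kb, and the smallest gap between its peaks was 910 bp.

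The next run, 2R run 2, lay 84.7 kb further along and had another make-up. It held 8 peaks between 6410455 and 6422540. In order along the arm they scored 10.03, 10.82, 14.57, 17.12, 15.80, 15.37, 14.33 and 16.77. The highest, 17.12, lay from 6415851 to 6416270, and the widest, 1476 bp, from 6419642 to 6421117. The scores of 6 neighbouring peaks stayed between 14.33 and 17.12, so no peak of this run stood clearly above the rest.

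The run with the second most peaks was 2R run 9, from 17590154 to 17610371, where 9 peaks fell into 3 groups. The first group had scores of 12.61, 8.00 and 11.26 between 17590154 and 17592386. After a gap of 8580 bp came peaks with scores of 11.22, 14.96, 10.71 and 11.94 between 17600967 and 17604075. A further gap of 5577 bp led to the last pair, with 8.48 and 8.94, from 17609653 to 17610371. It was the only run with a pair of gaps over 5 kb. All 9 peaks were narrow, from 201 to 485 bp.

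On 2R run 10, from 18573907 to 18583703, the 7 peaks scored 14.62, 13.24, 15.48, 17.93, 12.25, 8.59 and 8.40 along the arm. The first 4 were separated by 48 to 461 bp and the last 3 by 1778 to 2831 bp from the peak before. The higher scores of this run thus lay at its densely packed side. The other 6 runs of 2R had 4 to 6 peaks. Run 3 (7779761 to 7782862) opened with a wide peak of 1282 bp and a score of 30.73, followed within 56 to 213 bp of each other by peaks of 9.16, 8.86 and 13.24. Run 5 held 6 peaks from 8867486 to 8884019 with a highest score of 19.55. Runs of 4 peaks lay from 8472550 to 8477155, from 9110157 to 9112759, from 12457682 to 12468160 and from 16719411 to 16726293, and their highest scores were between 13.39 and 16.11.

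Arm 2L had the most runs, and in several of them a single high score stood among low ones. In 2L run 8, from 8415834 to 8428203, the 4 peaks scored 13.82, 50.06, 13.48 and 11.17. The peak of 50.06, from 8416534 to 8417112, is the second highest of all peaks in runs and exceeded the next of its run by 36.24, the widest such margin of any run. Run 10 (19154794 to 19162733) opened with a peak of 33.01, from 19154794 to 19155474, and went on with 10.83, 10.74 and 10.52. Run 11 (19571240 to 19577122) differed in having 2 scores above 20. Its peaks scored 10.68, 21.09, 11.36 and 32.65, the last being a peak of 1281 bp from 19575842 to 19577122. In run 12 (21627631 to 21632645) a peak of 25.74 stood among scores of 8.32 to 12.57.

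Run 3 of 2L held the widest peak of all runs. From 2752949 to 2755863 this peak spanned 2915 bp and scored 26.62. It was followed by peaks of 12.91, 12.78, 15.85 and 12.33, each 203 to 346 bp wide, so that the run covered 2752949 to 2758281 with gaps of 70 to 667 bp. The other runs of 2L away from its end were weaker. Runs of 4 peaks lay from 870533 to 873683, 5977651 to 5984552, 6917901 to 6925841 and 8029756 to 8042191, with highest scores of 12.91 to 18.05. Runs of 5 peaks lay from 5540269 to 5545741, 9894092 to 9897425 and 21678233 to 21681992, with highest scores of 13.93 to 16.80.

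On 3L run 2, from 224217 to 240610, held 7 peaks, most of them close together. The first 6 scored 19.02, 17.39, 12.09, 18.30, 21.08 and 14.27 and were separated by 51 to 295 bp between 224217 and 231654. Of these, 3 were over 1000 bp wide, at 1339, 2459 and 1553 bp. The seventh, of 201 bp and 10.40, lay 8755 bp further on. The run had the second highest median of all runs, 17.4, although its highest score was 21.08.

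The highest score in any 3L run was 23.15, in run 8 from 17631289 to 17646743. Its 6 peaks scored 8.31, 10.21, 13.07, 8.13, 23.15 and 16.01, and the highest was a 945 bp peak from 17637094 to 17638038. Run 3 (831151 to 833234) was the shortest and densest of all runs, with 1.92 peaks per kb. It was weak throughout, with scores of 8.80, 9.77, 7.69 and 11.53. Runs of 4 peaks also lay from 8594446 to 8596641, 11245584 to 11248102 and 11816259 to 11826558, and runs of 5 from 3220667 to 3224549 and 19888578 to 19901340. Their highest scores ranged from 13.72 to 22.32.

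On 3R the run with the most peaks was run 2, from 1421196 to 1426689. Its 7 peaks scored 11.07, 12.79, 12.18, 11.35, 12.75, 18.28 and 18.05, so that both higher values were the last pair, from 1425522 to 1426689. Run 3, from 1826322 to 1834279, held the highest score of the 3R runs. Its 6 peaks scored 8.77, 9.75, 12.25, 19.88, 13.72 and 30.26, the last being 1000 bp wide and 3268 bp away from its neighbour. Run 7, from 24425787 to 24431325, had the smallest range of scores of all runs, with scores of 10.03, 10.40, 10.01, 10.30 and 10.70. The other runs of 3R lay from 627654 to 637590 with 4 peaks, and from 6175998 to 6181170, 7036086 to 7051270 and 15143273 to 15151883 with 5 each. The highest scores of these 4 runs were between 11.97 and 19.00.

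The run on chromosome 4, from 1315363 to 1351689, was the longest and held 22 of the 32 peaks of that chromosome, including its last. Along the chromosome the scores were 17.93, 26.62, 14.22, 19.14, 16.39, 19.84, 24.15, 11.44, 11.24, 14.43 and 17.32 up to 1334877, and then 10.60, 12.06, 17.48, 7.77, 14.71, 7.06, 30.35, 17.64, 15.69, 15.33 and 18.48. Peaks above 20 numbered 3 and were spread through the run, at 1316125 to 1316875, 1330036 to 1331304 and 1342327 to 1344192. The last of these scored 30.35 and was 1866 bp wide. The median score was 16.0 (95% interval 12.1 to 18.5, from the ranks of the 22 peaks), against 14.4 for the 10 peaks of chromosome 4 outside the run (8.78 to 18.3). The 2 intervals overlap. Among its peaks, 72.7% were in the higher-scoring 638 peaks of the list, against 36.0% of all peaks in runs and 60.0% of the 10 peaks of chromosome 4 outside the run (95% exact interval 26.2 to 87.8). The gaps had a median of 500 bp, and 3 of 21 were over 2 kb.

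**Figure D2:**
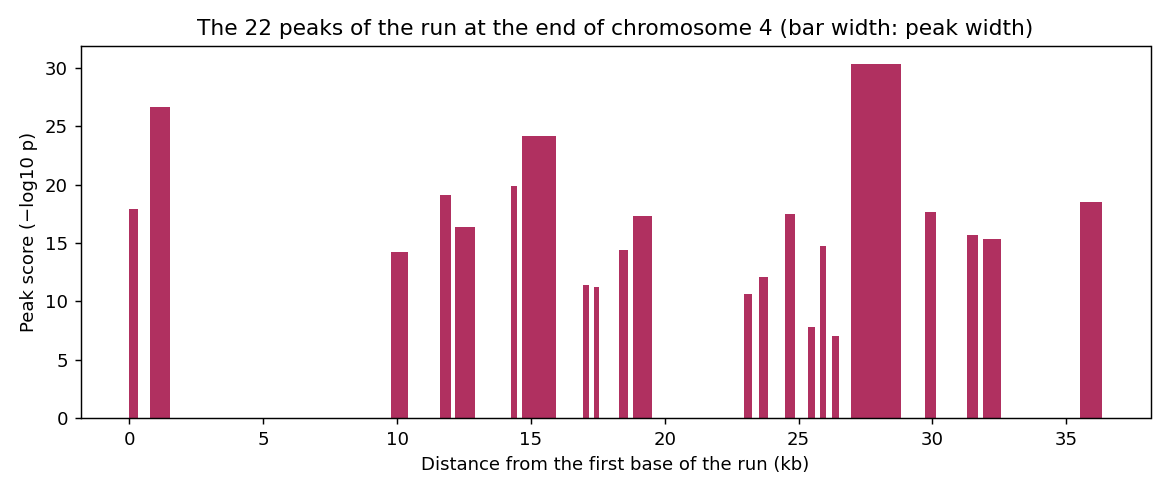
Score of each of the 22 peaks (−log10 p, vertical axis from 0) against its distance in kb from the first base of the run on chromosome 4, with bar width showing peak width. The 3 peaks above 20 lie near the start, in the middle and in the later part of the run.

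Runs also lay at the first bases of 2L, 3L and X. On 2L, 8 peaks between 489 and 20989 scored 10.03, 10.51, 10.03, 9.61, 7.79, 11.35, 11.01 and 13.58. On 3L, 5 peaks between 3422 and 12941 scored 10.97, 9.16, 6.72, 8.59 and 7.49, which gave the lowest median of any run, 8.59. The 6 peaks of the X run, between 1170 and 16485, scored 12.91, 9.16, 14.88, 10.51, 17.55 and 12.90. The median of the 2L run, 10.3, was below 11.3, the middle value of the medians of all runs, and that of the X run, 12.9, was above it. The X run was the only run on X, whose other 66 peaks stood alone, in pairs or in triplets. Over these 3 runs, 11 of 19 peaks (57.9%) were under 250 bp wide, and none scored above 20. In the 37 runs that were neither here nor at the end of chromosome 4, 21.7% of the 184 peaks were under 250 bp wide. Of those 184 peaks, 8.15% scored above 20. Over the 903 placed peaks without the runs left out, 27.6% were under 250 bp wide and 9.97% scored above 20.

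**Figure D3:**
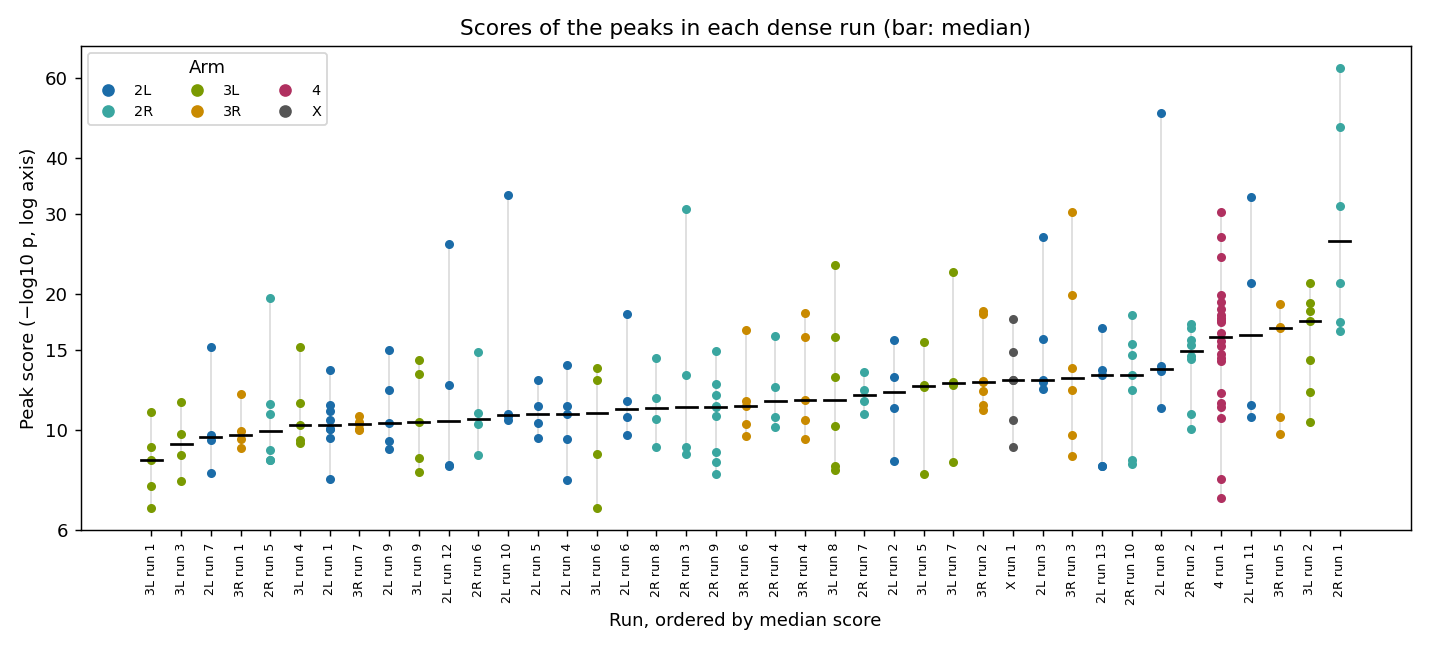
Each point is the score of a peak (−log10 p, log axis) in one of the 41 runs, ordered by median score, with the median as a bar and the arm as colour. Medians range from 8.59 to 26.1, and 29 of the runs have no score above 20.

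The median score of peaks in dense runs lay within the intervals of pairs and triplets and of single peaks. It was 11.6 (95% interval 11.2 to 12.6, from ranks), against 11.7 for the 327 peaks in pairs and triplets (11.2 to 12.4) and 11.8 for the 351 single peaks (11.3 to 12.3). The quartiles were 10.0 and 15.3 in runs and 9.75 and 15.5 for single peaks. Scores above 20 were found in 18 of the 225 peaks in runs (8.00%), in 37 of those in pairs and triplets (11.3%) and in 35 single peaks (9.97%). The 50 peaks of the runs left out, which are dense as well, are in none of these classes and had a median of 38.1 and 37 scores above 20. With them, 13.3% of the 953 placed peaks scored above 20, and 27.9% of the whole list did. These intervals cover the spread over peaks, not over libraries, and the classes share the same libraries. Among the 319 highest scores of the list, 15 belonged to dense runs, which is 6.67% of their peaks, against 8.87% of the peaks in pairs and triplets and 8.83% of single peaks. Over all placed peaks the share was 11.5%, and without the runs left out it was 8.31%.

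High scores were spread over several runs, most of which held exactly 1 score above 20. The 9 highest scores of peaks in runs came from 7 runs, and 3 of them were in 2R run 1. A pair of peaks, in 2L run 3 and on chromosome 4, tied for the next place at 26.62. A score above 20 occurred in 12 runs, above 30 in 7 and above 40 in 2, namely 2R run 1 and 2L run 8. Of the 12 runs, 9 held exactly 1 score above 20, and 2R run 1 held 4. The other 29 runs had no score above 20. In 5 runs no peak was above the list median of 13.3, in 20 runs exactly 1 was, and in 4 runs at least 4 were. Those 4 were the run on chromosome 4 with 16 such peaks, 2R runs 1 and 2 with 6 each, and 3L run 2 with 5. The list median also counts peaks on unplaced scaffolds and in the runs left out. Above it were 36.0% of peaks in runs, 38.2% of all 953 placed peaks and 36.0% of the 903 without the runs left out. So were 121 of the 327 peaks in pairs and triplets and 123 of the 351 single peaks. The counts per run thus do not set dense runs below other placed peaks.

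The highest peak had no fixed place in a run. It was the first or the last peak in 19 of the 41 runs (46.3%) and an inner peak in 22. First and last peaks made up 82 of the 225 peaks in runs (36.4%), a share that is larger in small runs. This is a share of peaks, to which large runs add many inner peaks, while 46.3% is a share of runs. The values are not directly comparable. In 20 runs it was also the widest peak. The margin over the second highest score had a median of 2.71, was under 2 in 9 runs and over 10 in 8. Over the 41 runs, number of peaks and median score had a Pearson r of 0.29 and a Spearman rho of 0.31, and median gap and median score had values of 0.10 and -0.13. The points share a single list and differ in how many peaks they rest on, so these are descriptions only.

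The median width was 332 bp in runs (318 to 361), 319 bp in pairs and triplets (297 to 348) and 311 bp for single peaks (297 to 323). The narrowest peak of each class was 201 bp. Widths over 1000 bp were found for 13 peaks in runs (5.78%), 10 in pairs and triplets (3.06%) and 3 single peaks (0.855%). The share was 5.35% over all 953 placed peaks, because 25 of the 50 peaks in the runs left out were that wide, and 2.88% over the other 903. The 13 peaks in runs lay in 9 runs. Over the 225 peaks in runs, the score and the log10 of the width had a Pearson r of 0.56 and a Spearman rho of 0.63. For single peaks these were 0.55 and 0.59. Both measures come from the same read pile and are not independent.

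**Figure D4:**
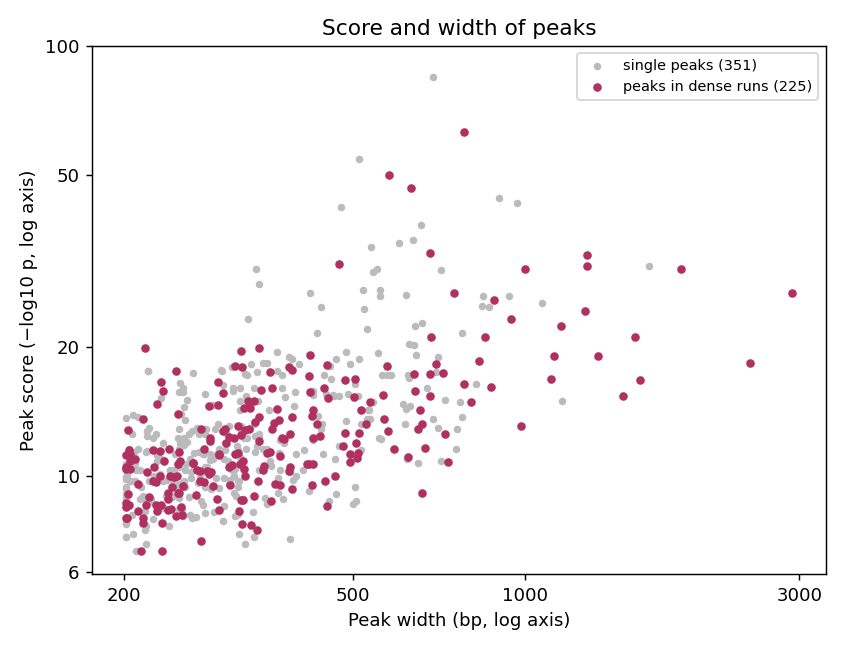
Score (−log10 p, log axis) against width in bp (log axis) for the 225 peaks in dense runs and the 351 single peaks. The clouds overlap over most of their range, and 13 peaks in runs against 3 single peaks are wider than 1000 bp.

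Gaps inside runs cannot exceed the joining distance of 10000 bp, and their lengths below it varied widely. The 184 gaps had a median of 557 bp (95% interval 446 to 838) and quartiles of 214 and 2203 bp, with a range of 45 to 9782 bp. Gaps of at most 500 bp made up 45.7%, gaps of at most 1000 bp 62.5% and gaps over 5000 bp 8.70%. In pairs and triplets, the 185 gaps had a median of 789 bp (568 to 976) and 38.9% were at most 500 bp. The intervals of the medians overlap.

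**Figure D5:**
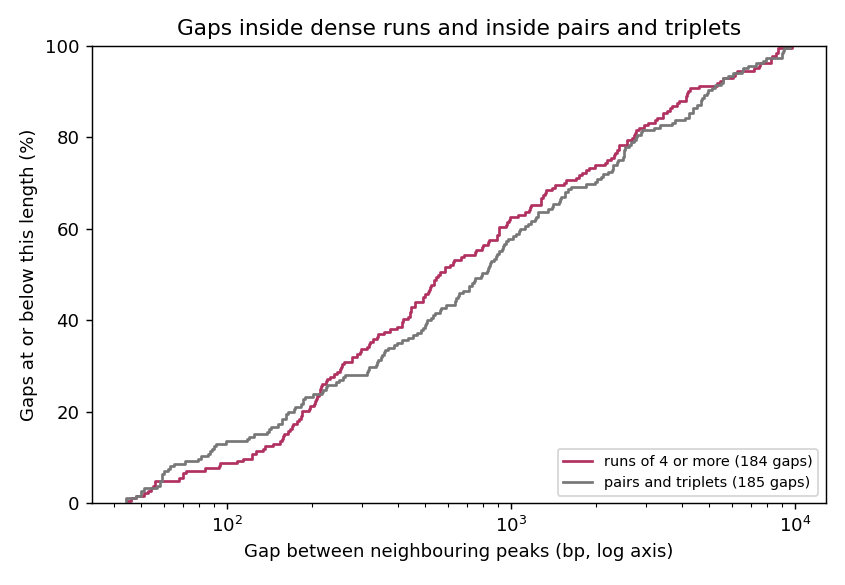
Cumulative share in % of gaps between neighbouring peaks (bp, log axis) in dense runs (184 gaps) and in pairs and triplets (185 gaps). The curve of the dense runs reaches its middle at 557 bp and that of pairs and triplets at 789 bp, and the curves meet towards the joining distance.

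Called peaks need not be separate sites, and a list does not show whether neighbours are parts of a single enriched stretch. With peaks within 500 bp merged, the 225 peaks became 142 stretches, and 18 runs kept at least 4. Another 9 runs were left with 3, 11 with 2 and 3 with 1. The 3 runs that became a single stretch were 2L run 13, 2R run 3 and 3L run 5. All gaps were at most 1000 bp in 10 runs with 47 peaks, a class formed after the gaps were seen. The median score in these compact runs was 12.2 (10.4 to 12.8), against 11.6 (11.2 to 12.8) in the other 31. In 15 runs at least 1 gap was over 5000 bp, and in 14 of these it was exactly 1.

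Scores can also be read for the background they were set against. Many scores of the list lie on a ladder of values that a Poisson tail gives at whole-number heights and a mean of 55.7, called here the common background. Of the peaks in runs, 60 (26.7%, 95% exact interval 21.0 to 33.0) lay within 0.006 of this ladder, against 30.3% in pairs and triplets and 36.8% of single peaks. Over all 953 placed peaks the share was 33.5%, and over the whole list it was 44.4%. In the 50 peaks of the runs left out it was 62.0%. The mean was chosen to put the most scores of the list on the ladder, so these shares are descriptions only. On X, 52 of the 66 peaks outside its run (78.8%) were on the ladder. The shares in runs, in pairs and triplets and for single peaks come closer when X and chromosome 4 are set aside. On the 4 large autosome arms they were 26.9% of 197 peaks in runs (20.8 to 33.7), 28.1% of 306 in pairs and triplets (23.1 to 33.5) and 29.1% of 296 single peaks (23.9 to 34.6). Among runs, all 5 peaks at the start of 3L were on the ladder, 1 of 8 at the start of 2L and 3 of 6 at the start of X. On chromosome 4 it was 4 of the 22. In the runs away from arm ends it was 25.5% of 184 peaks, from 0 of 9 in 2R run 9 to 4 of 5 in 2L run 13.

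The values on either side of the limits of the rule were as follows. The largest gap inside a run was 9782 bp, in 2L run 7, followed by 8755 bp in 3L run 2 and 8719 bp in 2R run 7. The nearest peak just outside a run was 10978 bp away, before 3R run 6, and the next were at 12949 bp after 2L run 5 and 13066 bp before the run on chromosome 4. Over the 78 distances from a run to the next peak outside it, the median was 137 kb. The 18 runs of 4 peaks, just above the minimum, had a median score of 11.2 and a median gap of 520 bp. The 43 triplets just below it had 12.4 and 779 bp.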

How the data were processed

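The deposited list of Scute peaks was made from 2 ChIP and 2 Input libraries. Per the file headers, the authors called peaks with MACS on FlyBase release 5 coordinates. BWA, MACS2 and CASAVA 1.7.0.2 and 1.7.0.3 with build BDGP5 are named in the submitters' processing notes. The sources used here do not give how libraries were combined, how duplicates and multiply mapped reads were treated, or the threshold. Each deposited score was read as a −log10 p-value by the authors' caller, from its values only. Depth is unknown.

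The members and the lists were chosen with earlier results of these data known. Gaps run from the end of a peak to the start of the next. Intervals of medians are exact rank intervals and those of shares are exact Clopper-Pearson intervals at 95%, both over peaks. The common background is the mean, from 2 to 200 in steps of 0.01 and then 0.001, with the most scores within 0.006 of −log10 of a Poisson tail; 44.4% of the list lay there. Joining and mean were tested on simulated data. Given with every peak score are runs of 7 or more peaks and the run with the highest score on each arm. Peaks were assigned to no gene, since the only gene table at hand was of release 6 and was not used. Python 3.11.15, numpy 2.4.6, pandas 2.3.3, scipy 1.17.1 and matplotlib 3.10.9 were used.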

Additional observations from a re-analysis of the deposited data

Results flagged for a closer look

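Signal in sequence left out of the runs was seen on scaffolds not placed on an arm. The unplaced collections U and Uextra held 34 and 286 peaks and the heterochromatic scaffolds 3, in all 323 peaks. The same joining rule gave 4 runs of at least 4 peaks there, with 31 peaks, of which the largest held 19. These peaks come from the same ChIP to Input comparison as the rest of the list, and their runs were not described further.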

How the results depend on the processing

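No paired analysis was possible because the list gives each peak a single value over all libraries; for the same reason no replicate was left out. Of 63 alternatives, 47 stayed within 1.5 times a count or within the interval of a median or share. The 41 runs became 23 with a minimum of 5 peaks, 84 with a minimum of 3, 18 with peaks within 500 bp merged first, 4 with peaks above the median score and 0 with the highest-scoring 25%. A cut on score leaves fewer peaks to join at the same distance, so a fall in the number of runs is expected by construction. The 225 peaks in runs became 354 with a minimum of 3, 90 merged stretches, 33 above the median score and 0 in the highest 25%, where no median or share could be given. Above the median score, the median score of peaks in runs was 17.4 by construction, the width 632 bp and the gap 946 bp. With peaks within 500 bp merged, the median width was 456 bp and the median gap 1739 bp, also by construction. The share at the common background, 26.7%, was 33.8% with a tolerance of 0.02 and 33.1% with the 3 stretches kept. The wider tolerance raised the other shares too, to 39.8% in pairs and triplets and 49.3% for single peaks. It gave 43.7% over all placed peaks and 54.6% over the whole list. Joining distances of 5 and 20 kb gave 35 and 49 runs. How far depth and replicate spread limit the weakest peaks is unknown.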
